A study of Mus musculus with 9 samples.

Results

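The interferon-inducible GTPases described here are the products of 9 genes: the guanylate-binding protein genes Gbp2 and Gbp3, the immunity-related GTPase genes Irgm1, Irgm2, Igtp (also named Irgm3), Iigp1 and Ifi47, and the Mx genes Mx1 and Mx2. Their transcripts, not the proteins, were measured, by every probe set to which the platform annotation gives one of these symbols and no other gene. That rule found all 9 genes, with 11 probe sets among 22626 tested (12393 named genes). Gbp2 and Iigp1 had 2 probe sets each and the other genes 1 each, and no further probe set named one of them together with other genes.

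Expression was measured in RAW 264.7 cells, a macrophage line of mouse origin, with 9 arrays. Of these, 3 came from untreated cells, 3 from cells exposed for 18 h to lipopolysaccharide (LPS, a bacterial outer membrane component) at 100 ng/ml, and 3 from cells labelled as constitutively over-expressing CstF-64, a factor of mRNA 3' end formation, with no LPS named in their labels. No array comes from a control population for the CstF-64 construct, and what drives the construct and whether the cells are a pool or a clone was not given in the sources used here. Whether the replicates are separate cultures is not given either, so p-values measure only the spread between these arrays, which may be technical.

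These proteins are the cell-autonomous arm of the interferon response: cells make little of them at rest and transcribe their genes when interferon signals through JAK kinases, STAT proteins and interferon regulatory factors. In macrophages LPS reaches the same genes indirectly, through interferon beta that the cells release and that acts back on them. Guanylate-binding proteins are large GTPases of the dynamin superfamily that coat pathogen vacuoles and bacteria and bring the inflammasome to bacterial LPS. Immunity-related GTPases fall into effectors that attack vacuole membranes (Iigp1, Ifi47) and regulators that keep the effectors off the cell's own membranes (Irgm1, Irgm2, Igtp). Mx proteins block the multiplication of viruses, and both mouse Mx genes are defective in many inbred strains. In the mouse reference assembly used for gene names, GRCm38.p6, Mx1 and Mx2 are classed as transcribed pseudogenes.

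Since the results turn on which of these genes moved with LPS, the sequence just upstream of their annotated start sites is shown first. RefSeq promoter windows of GRCm38.p6, from 250 bases before to 50 after a start site, were at hand for 6 of the 9 genes, with 7 windows because Gbp3 has 2 start sites. They were searched on both strands for the interferon-stimulated response element (ISRE), as GAAA, any 2 bases and GAAA, for the gamma-activated site (GAS), as TTCNNNGAA, and for the kappaB consensus. The last 120 bases before the start site are printed 5' to 3' in the direction of the gene, in lower case, with every ISRE match in capitals. The same element on the other strand reads TTTC, any 2 bases and TTTC. For Gbp3 the first start site is shown.
Gbp2, chr3:142620543-142620662, plus strand: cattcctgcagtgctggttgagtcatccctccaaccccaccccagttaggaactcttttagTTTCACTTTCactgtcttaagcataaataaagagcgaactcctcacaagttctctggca
Gbp3, chr3:142559924-142560043, plus strand: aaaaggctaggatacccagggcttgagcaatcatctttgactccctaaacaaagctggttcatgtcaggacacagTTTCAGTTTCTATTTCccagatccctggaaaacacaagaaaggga
Irgm1, chr11:48871421-48871540, minus strand: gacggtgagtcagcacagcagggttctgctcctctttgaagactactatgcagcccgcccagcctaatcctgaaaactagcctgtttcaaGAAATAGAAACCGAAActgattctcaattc
Irgm2, chr11:58214857-58214976, plus strand: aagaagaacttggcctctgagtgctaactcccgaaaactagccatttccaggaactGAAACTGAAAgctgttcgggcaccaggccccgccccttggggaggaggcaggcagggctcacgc
Igtp, chr11:58199436-58199555, plus strand: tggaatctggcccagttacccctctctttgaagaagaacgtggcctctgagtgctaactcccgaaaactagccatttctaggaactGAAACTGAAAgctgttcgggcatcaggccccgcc
Ifi47, chr11:49076467-49076586, plus strand: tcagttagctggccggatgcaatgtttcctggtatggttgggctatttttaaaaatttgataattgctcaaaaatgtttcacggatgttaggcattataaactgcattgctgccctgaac
All of these genes but Ifi47 held an ISRE match in the window shown, within 64 bases of the start site. In Gbp3 and in Irgm1 a pair of matches overlapped each other. Igtp and Irgm2, neighbours on chromosome 11, shared a run of 29 bases around the match, and both had a GAS match just upstream of it, with no overlap. Gbp2 had a kappaB match after its start site, and neither Ifi47 nor the second start site of Gbp3 had a match to any of the 3 motifs. Among all 32851 windows of this length in the table, 3.44% held an ISRE match, 8.30% a GAS match and 8.46% a kappaB match. A match is a string of letters in the reference strain, not a bound site, and binding was not measured.

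**Figure D1:**
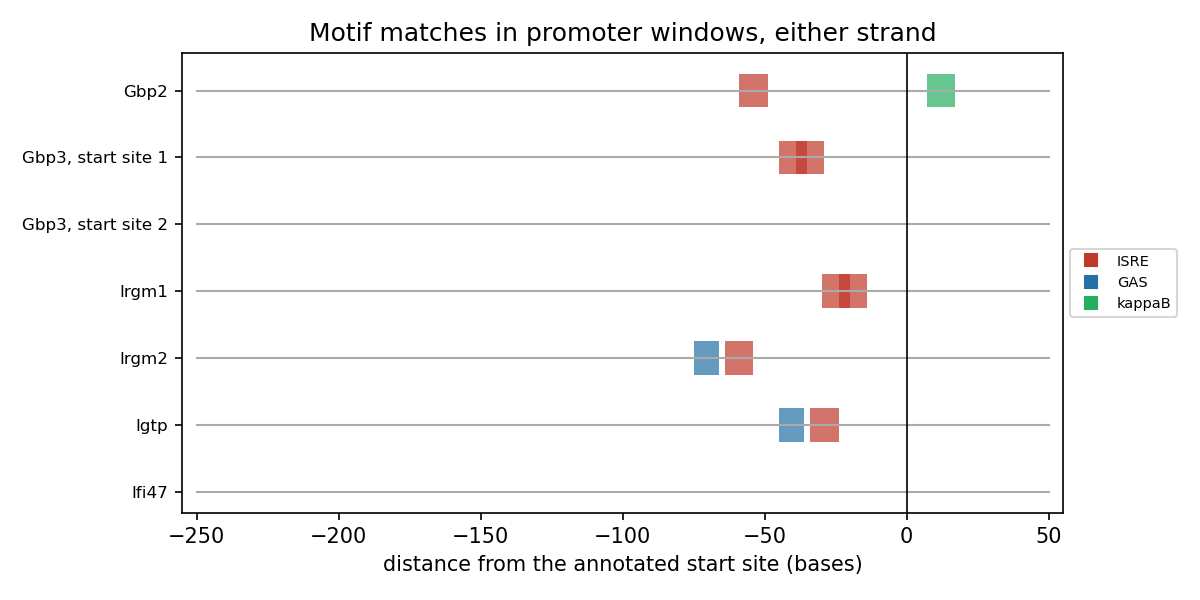
Positions of ISRE, GAS and kappaB matches (coloured boxes, either strand) in the 7 promoter windows, as the distance in bases from the annotated start site at 0. ISRE matches lie within 64 bases before the start site in Gbp2, Gbp3 (start site 1), Irgm1, Irgm2 and Igtp, and Ifi47 has no match.

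Values below are the deposited intensities of a probe set, compared between arrays as scaled at deposit, and not comparable between probe sets. Array medians were 52.3 to 52.7 in untreated cells, 42.75 to 49.3 after LPS and 51.1 to 54.2 in the CstF-64 arrays. The effect of other scalings is given below. Log2 changes are differences of log2(intensity + 13), which understate the change of dim probe sets, and come with adjusted p-values from limma over all 22626 probe sets; "rose", "fell" and "called" mean an adjusted p under 0.05. The highest value of the 27 Bacillus control probe sets, 31.2, served as the background limit. Where every array of a group lay at or below it, a fold is given as "at least", which is the brighter group's geometric mean over 31.2. The groups correlated within themselves at r = 0.965 to 0.989, and LPS array 1 stood apart most (its correlations with its own group averaged 0.966), followed by CstF-64 array 1 (0.975). Macrophage markers were present on all arrays (Cd68 between 2444 and 3931, Lyz2 between 4218 and 5856). None was called in the CstF-64 arrays against untreated cells. There, Adgre1 (221.0 against 510.6, limma adjusted p = 0.0777) and Itgam (114.9 against 168.0, limma adjusted p = 0.576) lay wholly lower. Fcgr1 lay wholly higher (153.0 against 107.9, limma adjusted p = 0.817). These markers were named after their values were seen. Of 8 markers of T and NK cells, a source of interferon gamma, 7 lay at or below 31.2 on every array, and none was called. Ifng itself, described again further on, is among the 7. The summed intensity of the 8 was 86.8 to 89.7 in untreated cells, 86.0 to 121.5 after LPS and 83.2 to 107.2 in the CstF-64 arrays. Of 9 macrophage markers 5 rose and 1, Csf1r, fell after LPS, where 6.67% of all genes rose and 10.4% fell. None of 4 B cell markers was called. Bst2, itself interferon-stimulated, rose among 3 markers of plasmacytoid dendritic cells, and Dcn, at least 1.48-fold higher, among 5 fibroblast markers, of which 3 were at background. Cstf2, the gene of CstF-64, was not raised in the arrays labelled CstF-64: its brighter probe set read 358 ± 38.4 there and 377.7 ± 18.0 in untreated cells (SD, n = 3, limma adjusted p = 1.00). The dimmer probe set read 97.1, 85.4 and 80.4 there, wholly below the 114.7, 100.2 and 134.1 of untreated cells, and was not called (log2 -0.36, limma adjusted p = 0.763). Whether these probe sets detect a transcript of the construct cannot be told, since the construct was not described in the sources used here. Over-expression was therefore not assessed, and the label serves here as a name.

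After LPS the transcripts of Gbp2, Gbp3 and Mx2 went from background to a measured signal, and those of Igtp and Mx1 rose too. Those of the other immunity-related GTPase genes were not called. Of the 11 probe sets, 6 rose and none fell; 5.93% of all probe sets tested rose and 10.7% fell. They belong to 5 of the 9 genes, Gbp2, Gbp3, Igtp, Mx1 and Mx2. Groups did not overlap, with all LPS arrays above all untreated arrays, for 9 of the 11, against 12.2% of all probe sets. The median change over the 11 was 0.97 on the log2 scale, beside -0.04 over all probe sets. LPS array 1 was the highest LPS array for all 11 probe sets, while it was the highest of its group for 49.8% of all probe sets. The changes of the 9 genes after LPS are therefore also given without it.

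**Figure D2:**
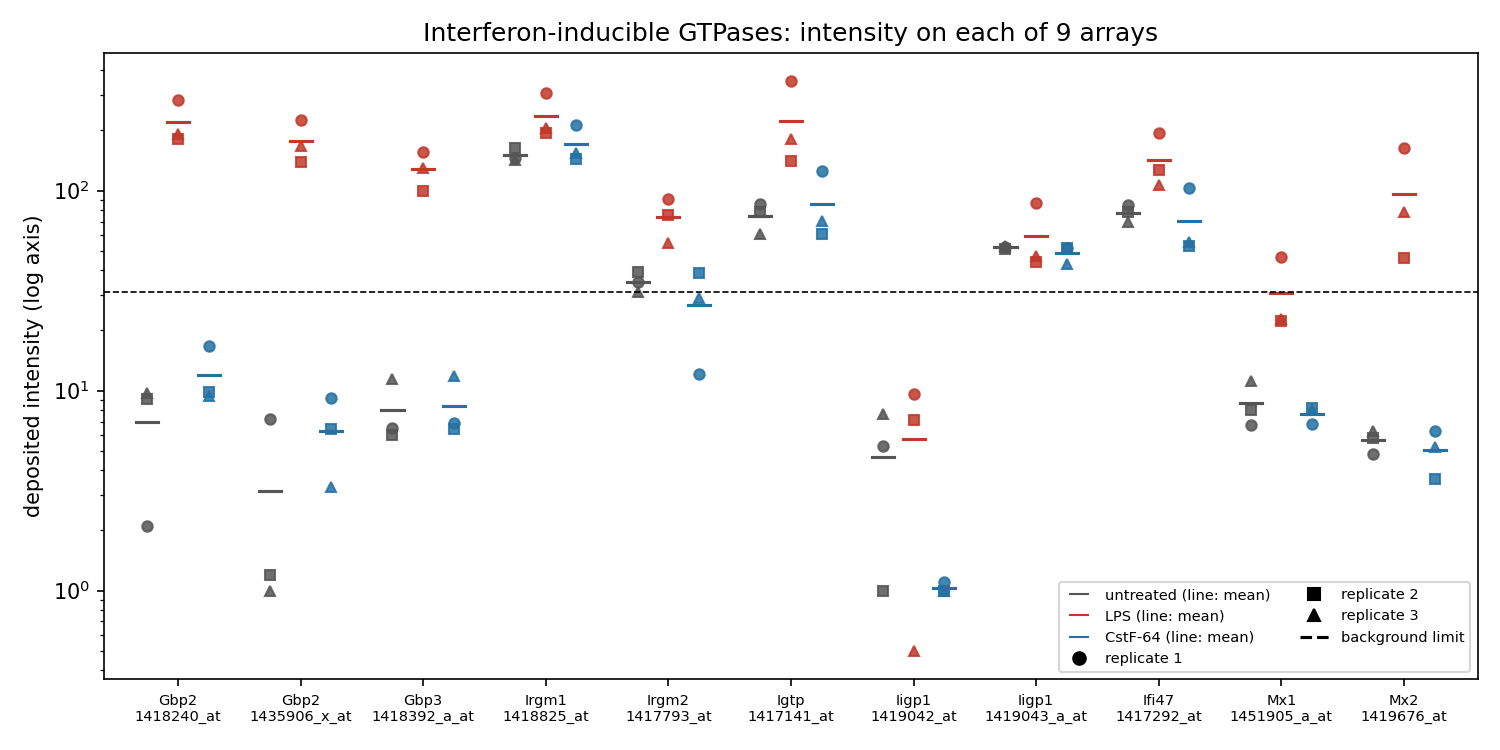
Deposited intensity (log axis) of the 11 probe sets on each of the 9 arrays, by group (colour) and replicate (marker shape), with the group mean as a short line and the background limit of 31.2 dashed. The LPS arrays of Gbp2, Gbp3 and Mx2 lie above the limit and the other arrays below it, while those of Iigp1 overlap the untreated arrays.

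Gbp2, which coats vacuoles and bacterial surfaces, went from background to a clear signal. Its probe set 1418240_at read 2.1, 9.1 and 9.7 in untreated arrays 1 to 3 and 285.1, 181.7 and 191.9 in LPS arrays 1 to 3. The second probe set, 1435906_x_at, read 7.2, 1.2 and 1.0 in untreated cells and 225.4, 139.3 and 166.9 after LPS. Both were at or under the background limit on every untreated array and several times above it on every LPS array, with no overlap. The rise was at least 6.89-fold by the first probe set (log2 3.54, SE 0.24, limma adjusted p = 1.29e-05) and at least 5.57-fold by the second (log2 3.56, SE 0.23, limma adjusted p = 9.93e-06). Without LPS array 1 the log2 changes were 3.35 and 3.38. The suffix x marks probe sets whose probes can also match related transcripts, so signal from other Gbp genes cannot be separated in the second.

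Gbp3, a neighbour of Gbp2 on chromosome 3, behaved alike. It read 6.5, 6.0 and 11.4 in untreated cells and 155.5, 99.1 and 130.3 after LPS. All LPS arrays were above the background limit and no untreated array was. It rose at least 4.04-fold (log2 2.74, SE 0.20, limma adjusted p = 2.13e-05), and by 2.60 without LPS array 1.

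Mx2, whose functional form restricts viruses from the cytoplasm, read 4.8, 5.8 and 6.3 in untreated cells and 163.8, 45.9 and 78.2 after LPS. LPS array 1 was far above the other LPS arrays, and all LPS arrays were above all untreated ones. The rise was at least 2.69-fold (log2 2.40, SE 0.32, limma adjusted p = 0.000886), and the log2 change was 1.98 without LPS array 1 (limma adjusted p = 0.000263).

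Mx1, the nuclear counterpart that acts against influenza viruses, was dim throughout. It read 6.7, 8.0 and 11.2 in untreated cells and 46.7, 22.4 and 22.8 after LPS. The groups did not overlap, but only LPS array 1 exceeded the background limit, so no fold is given. The probe set was called (log2 0.97, SE 0.20, limma adjusted p = 0.00888), also without LPS array 1 (log2 0.72, limma adjusted p = 0.00558), though both remaining LPS arrays then lay under the limit.

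The regulators among the immunity-related GTPases were above the background limit on every untreated array, Irgm2 only just (down to 31.3). They changed less than Gbp2 and Gbp3 on the log2 scale used. Igtp, which protects lipid droplets and other membranes of the cell, was the only one called, and a difference from Irgm1 and Irgm2 was not tested. Igtp read 85.6, 77.8 and 60.6 in untreated cells and 351.8, 140.0 and 181.3 after LPS. Every LPS array exceeded every untreated array, and LPS array 1 was the highest by far. The ratio of the means was 3.00 (log2 1.35, SE 0.33, limma adjusted p = 0.0204), and without LPS array 1 the log2 change was 0.99 (limma adjusted p = 0.0438). The call was lost without untreated array 2 (limma adjusted p = 0.0583) or untreated array 3 (limma adjusted p = 0.0723).

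Irgm1, needed by macrophages for control of mycobacteria and for handling of their own mitochondria, read 145.1, 163.4 and 142.6 in untreated cells and 306.3, 194.0 and 206.1 after LPS. The groups did not overlap, yet the change of 0.58 on the log2 scale (SE 0.20, 95% interval 0.14 to 1.01) had a limma adjusted p of 0.0721. Irgm2, which restrains inflammasome activation by LPS, read 34.8, 39.0 and 31.3 in untreated cells and 90.7, 75.6 and 54.6 after LPS. Here too all LPS arrays lay above all untreated arrays, with a change of 0.83 (SE 0.27, 95% interval 0.22 to 1.44, limma adjusted p = 0.0661). Without LPS array 1 the changes were 0.39 for Irgm1 and 0.69 for Irgm2, with limma adjusted p of 0.164 and 0.161.

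Neither effector was called after LPS, and a difference between them was not tested. Ifi47 read 84.5, 78.1 and 70.0 in untreated cells and 194.5, 127.1 and 106.8 after LPS. Groups did not overlap, and the change of 0.75 (SE 0.26, 95% interval 0.16 to 1.33) had a limma adjusted p of 0.0834, or 0.209 with a change of 0.52 without LPS array 1. Iigp1 (also named Irga6) loads onto the vacuole of Toxoplasma and is among the strongly interferon-inducible genes in many mouse cells. Its brighter probe set, 1419043_a_at, read 52.5, 50.9 and 53.0 in untreated cells and 86.9, 44.1 and 47.3 after LPS. LPS arrays 2 and 3 were below every untreated array and LPS array 1 was above. The change was 0.11 (SE 0.22, 95% interval -0.38 to 0.59, limma adjusted p = 0.819), and without LPS array 1 it was -0.15 (limma adjusted p = 0.561). The other probe set, 1419042_at, was at background on all 9 arrays, between 0.5 and 9.6, with a change of 0.07 (-0.08 without LPS array 1), uncalled with and without that array.

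**Figure D3:**
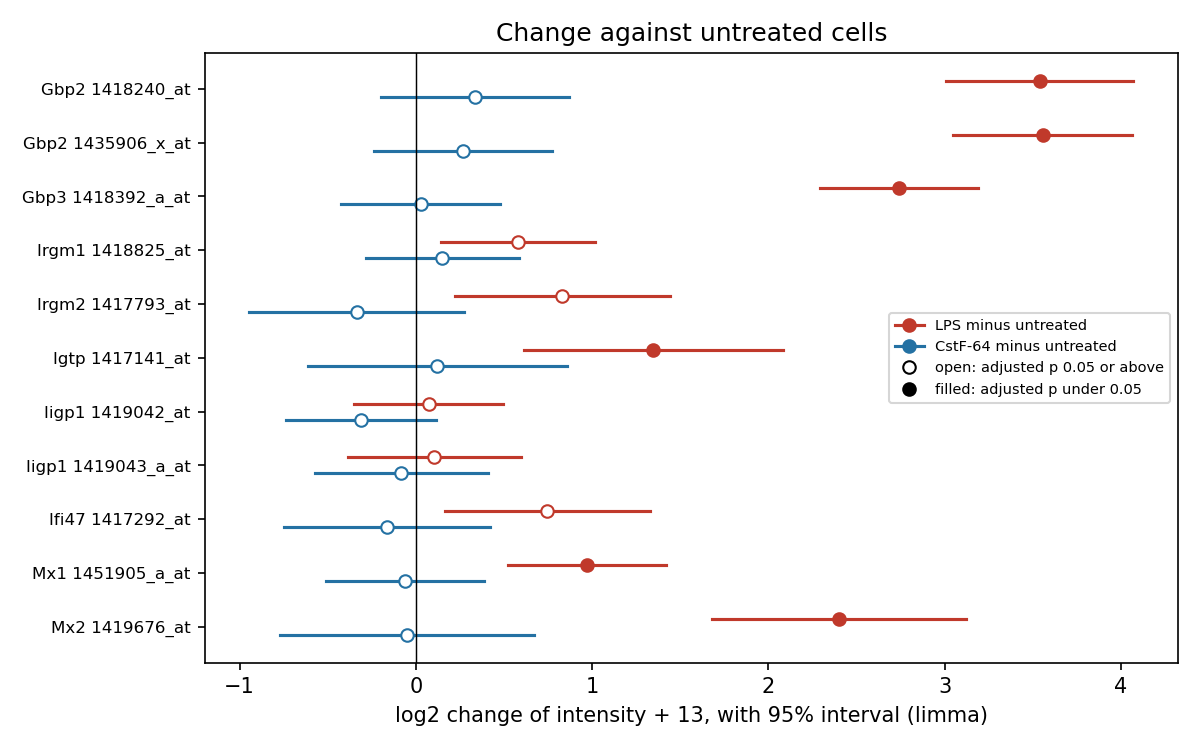
Log2 change of intensity + 13 for the 11 probe sets, LPS (red) and CstF-64 (blue) each against untreated cells, with limma's 95% interval; filled points have an adjusted p under 0.05. Intervals for LPS lie between 2.29 and 4.07 for Gbp2 and Gbp3 and between 0.14 and 1.44 for Irgm1, Irgm2 and Ifi47, and all CstF-64 intervals include 0.

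The intervals for Gbp2 (3.01 to 4.07 by the first probe set) and Gbp3 (2.29 to 3.19) lay above those of Irgm1, Irgm2, Igtp (0.61 to 2.08), Ifi47 and Iigp1 on this scale. The size of a change from background depends on the pseudocount. With 1 and with 50 in place of 13, the log2 changes were 4.96 and 2.23 for Gbp2 by 1418240_at, 5.72 and 2.08 by 1435906_x_at, 3.88 and 1.61 for Gbp3, 3.69 and 1.31 for Mx2 and 1.66 and 0.45 for Mx1. These probe sets were called under both. Irgm1, Irgm2 and Ifi47 sat close to the threshold. All 3 were called after quantile normalization (limma adjusted p = 0.0420, 0.0285 and 0.0442) and after centring each array on its median (0.0260, 0.0234 and 0.0360), so that 9 of 11 probe sets rose under either scaling. All 3 were also called without CstF-64 array 1, which enters the comparison only through the shared estimate of the spread (0.0471, 0.0215 and 0.0362). Leaving out dim probe sets gave the same calls (0.0448, 0.0316 and 0.041). Irgm2 was called as well with a pseudocount of 50 (0.0416) and with only the LPS and untreated arrays in the fit (0.0366). Ifi47 was called with the replicate number as a block (0.0255). Under the remaining settings they were uncalled. Median centring moved the median change of all probe sets by 0.16 log2 units in this comparison, and the share of called probe sets that were higher was 35.7% as deposited, 46.2% after quantile normalization and 60.5% after median centring.

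**Figure D4:**
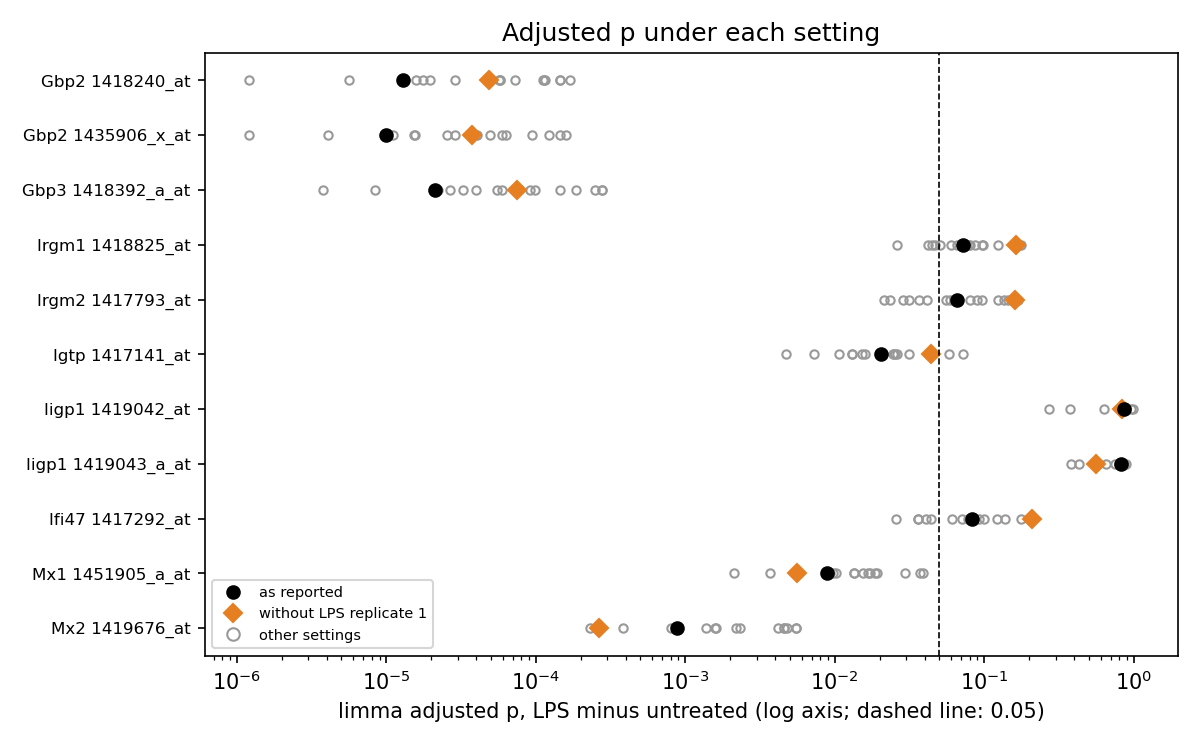
Limma adjusted p for LPS against untreated cells (log axis, 0.05 dashed) of the 11 probe sets as reported (black), without LPS replicate 1 (orange) and under the other settings (grey rings). Gbp2, Gbp3, Mx1 and Mx2 stay left of the line under all settings run for them, Iigp1 stays right of it, and Irgm1, Irgm2, Ifi47 and Igtp cross it.

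In the arrays labelled CstF-64 none of the 11 probe sets was called by limma against untreated cells, and none had an unadjusted p under 0.05 (smallest 0.133); of all probe sets, 0.102% were called higher and 0.146% lower. Groups overlapped for all 11, whereas over all probe sets 6.67% lay wholly higher and 6.18% wholly lower. Gbp2 stayed at background, with 16.8, 9.8 and 9.4 by 1418240_at in CstF-64 arrays 1 to 3 (log2 change 0.34, 95% interval -0.20 to 0.87). So did Gbp3, with 6.9, 6.4 and 11.8 (interval -0.42 to 0.48), Mx1, with 6.8, 8.2 and 8.0, and Mx2, with 6.3, 3.6 and 5.2. With both groups under the background limit no fold is given.

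CstF-64 array 1 was the highest CstF-64 array for 7 of the 11 probe sets, against 37.5% of all probe sets, among them those of Igtp, Irgm1 and Ifi47. Igtp read 124.8, 60.4 and 70.8 in the CstF-64 arrays, Irgm1 212.1, 144.4 and 154.3, and Ifi47 103.6, 53.1 and 55.2. For Irgm2 it was the lowest instead, with 12.1 against 38.8 and 29.1. The changes against untreated cells were 0.12 for Igtp (95% interval -0.61 to 0.86), 0.15 for Irgm1 (-0.28 to 0.58), -0.16 for Ifi47 (-0.75 to 0.42) and -0.34 for Irgm2 (-0.94 to 0.27). Without CstF-64 array 1 those of Igtp and Irgm1 became -0.15 and -0.01, all uncalled. Iigp1 read 51.5, 51.6 and 42.9 by its brighter probe set (interval -0.57 to 0.41).

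Set against the LPS arrays, 8 of 11 probe sets were lower in the CstF-64 arrays and none higher, where 5.79% of all probe sets were called lower and 9.43% higher. The groups did not overlap for the same 8, against 11.4% of all probe sets wholly lower. The LPS arrays are those of the comparison with untreated cells. Of all called probe sets 62.0% were higher in the CstF-64 arrays as deposited, 52.2% after quantile normalization and 37.3% after median centring, which moved the median of all probe sets by -0.16. Gbp2 differed by -3.20 and -3.29 on the log2 scale by its probe sets, Gbp3 by -2.71, Mx2 by -2.45 and Mx1 by -1.03. Igtp (-1.23, limma adjusted p = 0.0325), Irgm2 (-1.17, limma adjusted p = 0.0177) and Ifi47 (-0.91, limma adjusted p = 0.0429) completed the 8. Without LPS array 1, 5 were called, since Igtp, Irgm2 and Ifi47 were not (limma adjusted p = 0.0709, 0.0514 and 0.110). Igtp and Ifi47 also lost the call without CstF-64 array 2 (0.117 and 0.148) or 3 (0.105 and 0.144) and without untreated array 2 (0.0519 and 0.0666), Igtp without LPS array 3 (0.0636), and Ifi47 without LPS array 2 (0.0728) or untreated array 1 (0.0598) or 3 (0.0625) or with a pseudocount of 50 (0.0501). Irgm1 differed by -0.43 (95% interval -0.86 to 0.005, limma adjusted p = 0.185) and its groups overlapped. The dim probe set of Iigp1 was called lower in the fit without LPS array 3 (limma adjusted p = 0.0380), at intensities under the background limit.

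Genes of interferon signalling were called in part, and a link to the changes of the GTPase genes was not tested. Of 24 measured genes for interferons, their receptors and signalling, 5 rose and 1 fell after LPS, with a median log2 change of 0.23; among all 12393 genes, 6.67% rose, 10.4% fell and the median was -0.03. Irf7, the factor that amplifies interferon production, read 123.2, 77.7 and 90.0 in untreated cells and 2459, 2385 and 2592 after LPS, a rise of 4.52 (limma adjusted p = 5.55e-07). The LPS arrays were close together here, unlike for the GTPases. Irf9, the DNA-binding part of the complex that recognises the ISRE, rose from 84.3 ± 11.1 to 237.1 ± 3.80 (log2 1.37, limma adjusted p = 0.000318). Usp18, an interferon-induced brake on the type I receptor, rose from 88.3 ± 29.0 to 877.8 ± 210.1 (log2 3.15, limma adjusted p = 5.02e-05). The kinases Jak2 (log2 0.79) and Jak1 (log2 0.51) rose as well. Ifngr1, a chain of the interferon gamma receptor, was the gene that fell (212.9 ± 24.5 to 137.1 ± 24.2, log2 -0.60, limma adjusted p = 0.0363), a call that no longer held after quantile normalization or median centring, nor without untreated array 2 or 3, LPS array 1 or 2 or CstF-64 array 2, where 0 genes of the list fell. Jak1 and Ifngr1 complete the counts and were named after their values were seen.

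The interferon genes themselves were not among those that rose. Ifng read 7.9, 2.4 and 5.6 in untreated cells and 12.5, 7.1 and 12.2 after LPS, all under the background limit. Ifnb1 read 27.9, 29.0 and 49.6 in untreated cells and 36.3, 25.1 and 19.0 after LPS (log2 -0.28, limma adjusted p = 0.497), with overlapping groups around that limit. The arrays give one time, 18 h, so earlier transcripts were not measured. These genes were chosen for mention after their values were seen.

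Of the relatives of Gbp2 and Gbp3 that fell outside the 9 genes, 4 were measured and 3 rose. Over all genes, 6.67% rose and 10.4% fell. Gbp2b (Gbp1 in older naming) read 17.5, 16.0 and 8.5 in untreated cells and 354.5, 216.6 and 245.9 after LPS, a rise of at least 8.53-fold (limma adjusted p = 1.65e-05). Gbp7 rose at least 6.46-fold, to 214.9 ± 98.3, and Gbp6 at least 1.97-fold, to 61.7 ± 5.22. LPS array 1 was the highest LPS array for all 3. Without it the log2 changes went from 3.39 to 3.19 for Gbp2b, from 2.86 to 2.53 for Gbp7 and from 2.28 to 2.23 for Gbp6, and each remained called. The change of Gbp6 was 4.38 with a pseudocount of 1 and 1.09 with 50. For these 3, no CstF-64 array exceeded the background limit of 31.2. Gbp8 stayed under that limit on all arrays. It read 4.1, 21.1 and 30.3 in the CstF-64 arrays and at most 2.7 elsewhere, and was not called against untreated cells (log2 1.04, limma adjusted p = 0.336), while 1 gene of this list was called higher there without CstF-64 array 1. Against the LPS arrays Gbp8 was called higher in the CstF-64 arrays (log2 1.10, limma adjusted p = 0.0226), with all values under the limit. The median log2 change of the list after LPS was 2.57, beside -0.03 for all genes.

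The constitutive dynamin superfamily holds GTPases that shape mitochondria, endoplasmic reticulum and endocytic vesicles. None of 8 measured genes was called after LPS by limma, where 6.67% of all genes rose and 10.4% fell, and 0 had an unadjusted p under 0.05. The median change was 0.18, and a difference from the interferon-inducible GTPases was not tested. Dnm2, the dynamin of endocytosis, went from 231.4 ± 4.65 in untreated cells to 292.9 ± 74.6 in the LPS arrays (limma adjusted p = 0.317), with LPS array 1 again highest at 374.8. Mfn2, of mitochondrial fusion, read 97.4 ± 27.5 and 120.6 ± 6.33 (limma adjusted p = 0.312), and Dnm1 and Dnm3 were also uncalled (limma adjusted p = 0.620 and 0.472).

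Among genes that act with these GTPases, those on the vacuole side rose in part. Over all genes, 6.67% rose and 10.4% fell, with a median of -0.03. Of 10 genes of ATG conjugation, the autophagy machinery that guides GTPase loading onto vacuoles, 3 rose and none fell (median 0.18). They were Gabarap (1092 ± 224.8 to 1805 ± 135.8, log2 0.74, limma adjusted p = 0.00696), Atg12 (log2 0.79, a call lost without untreated array 2 at limma adjusted p = 0.0604) and Atg7 (log2 0.56, limma adjusted p = 0.0103). Gabarapl1 (log2 0.54) had a limma adjusted p of 0.0742, with 0.0316 without LPS array 1 and 0.0418 after median centring. Of 7 ubiquitin ligases and autophagy receptors at vacuoles, 2 rose and none fell (median 0.40). These were Sqstm1, the receptor p62 (1107 ± 165.5 to 4783 ± 557.5, log2 2.10), and Lgals8, a galectin that marks broken vacuoles (253.5 ± 9.95 to 550.0 ± 61.1, log2 1.07). Trim21 (log2 0.60) and Lgals3 (log2 0.40) had limma adjusted p of 0.129 and 0.105. Both were called after median centring, which raised the count of that list to 4, and Lgals3 also with dim probe sets left out (limma adjusted p = 0.0375) and without untreated array 3 (limma adjusted p = 0.0478).

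Of 7 measured genes of inflammasomes and related sensors, 4 rose and none fell, with a median of 0.95. Over all genes, 6.67% rose and 10.4% fell. Casp4, the sensor of cytosolic LPS that mouse guanylate-binding proteins help to reach its ligand, read 31.9, 63.3 and 41.0 in untreated cells and 413.2, 284.1 and 436.9 after LPS (log2 2.76, limma adjusted p = 9.43e-05). Zbp1, a nucleic acid sensor, rose at least 11.1-fold to 348.3 ± 55.8. Casp1, the inflammasome protease (214.9 ± 28.1 to 580.5 ± 147.0, log2 1.36), and Nlrp3 (296.4 ± 32.2 to 586.7 ± 102.7, log2 0.95) rose as well. For Casp1, LPS array 1 was the lowest LPS array, at 413.5 against 637.7 and 690.2, the opposite of its place for the GTPases. None of the 60 list genes measured was called by limma in the CstF-64 arrays against untreated cells, where 0.105% of all genes were called higher and 0.169% lower. An unadjusted p under 0.05 was found for 5, among them Usp18 (252.7, 143.2 and 152.7 in the CstF-64 arrays, log2 0.95, limma adjusted p = 0.403). The share of all genes at that unadjusted threshold was not counted, so nothing is read from these 5.

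**Figure D5:**
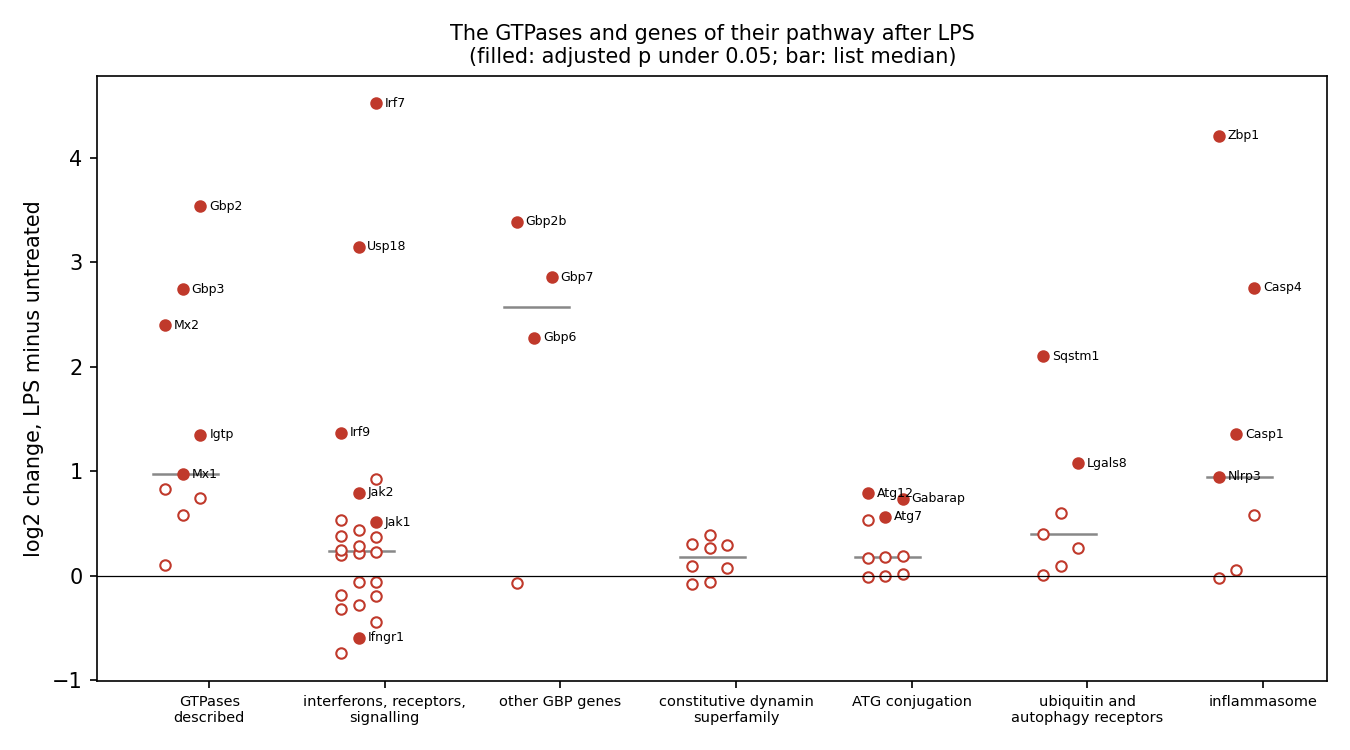
Log2 change after LPS of the 9 GTPase genes (brightest probe set each) and of the genes in 6 lists around them, 1 point a gene; filled points have an adjusted p under 0.05 and grey bars are list medians. The GTPases and the other GBP genes have medians of 0.97 and 2.57, against 0.18 for the constitutive dynamin superfamily.

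The genes whose pattern over the 9 arrays was most like the mean of the 9 standardised GTPases were Edn1, which encodes the vasoconstrictor endothelin, the sialyltransferase gene St3gal1, the cytokine gene Il1f9 (Il36g in newer naming), Hdc, of histamine synthesis, and Upp1, of uridine breakdown, with Pearson r from 0.990 to 0.992. The mean standardised level of the GTPases was 1.91 in LPS array 1, 0.63 and 0.71 in LPS arrays 2 and 3, and between -0.71 and -0.35 in the other 6 arrays. Genes chosen for likeness to this profile are high in LPS array 1 by that choice, as in Edn1, which read 788.7, 87.8 and 121.2 in LPS arrays 1 to 3. Beyond the values without LPS array 1, its part in the rise of the GTPases was not tested.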

How the data were processed

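Total RNA from 9 samples was hybridised to 1 Affymetrix mouse array each, per the labels. The deposited values are linear intensities whose 2% trimmed means are 150.05 to 150.06 on all arrays, so that these were brought to a common level before deposit; their software and normalization was not given in the sources used here. Precision is limited by the number of arrays. The 64 control probe sets were left out. Probe sets were named from the platform annotation (20380 with 1 gene, 691 with several, 1555 with none), with symbols of GRCm38.p6. One mean per group was fitted to log2(intensity + 13) on all 9 arrays with limma 3.58.1 in R 4.3.3 (lmFit, eBayes with an intensity trend), two-sided, with Benjamini-Hochberg adjustment over 22626 probe sets. The fit was tested on simulated data. Alternatives were scaling, pseudocounts of 1 and 50, a filter on dim probe sets (above 31.2 on at least 3 arrays), no trend, only the groups compared, a replicate block and each array left out.

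List genes were named by a rule: up to 4 per list by the smallest adjusted p after LPS, and any called in the CstF-64 arrays, using each gene's brightest probe set; exceptions are marked. The genes and lists were chosen with earlier results of these data known.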

Additional observations from a re-analysis of the deposited data

How the results depend on the processing

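After LPS the counts of the 11 GTPase probe sets that rose were 5 to 9 with single arrays left out, and 6 to 9 under the other alternatives. Over 185 refits of single probe sets, 165 kept call and direction, 15 were newly called, 2 lost the call and 3 turned sign. Against LPS, 5 probe sets were lower in the CstF-64 arrays with only those groups in the fit, 7 with a pseudocount of 50, 7 with dim probe sets left out, and 5 to 8 with single arrays left out. Changes that turned sign were uncalled throughout. With single arrays left out, Iigp1 ranged from -0.085 to 0.29 (1419042_at) and from -0.15 to 0.25 (1419043_a_at) after LPS, and the latter from -0.335 to 0.068 between CstF-64 and LPS. For CstF-64 against untreated cells Gbp3 ranged from -0.084 to 0.142, Igtp from -0.15 to 0.30, Irgm1 from -0.007 to 0.25, Mx1 from -0.13 to 0.022 and Mx2 from -0.10 to 0.009. Gbp8 after LPS ranged from -0.11 to 0.002 and was 0.09 after median centring.

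Over all probe sets, 56 were called between CstF-64 and untreated cells. With single arrays left out that count was 18 (without untreated array 2) to 110 (without CstF-64 array 1), with 85 without LPS array 1, and 20, 24 and 28 without CstF-64 array 3, CstF-64 array 2 and untreated array 3. Between CstF-64 and LPS 3443 were called, 2093 (without CstF-64 array 3) to 3299, with 2163 without CstF-64 array 2. Between LPS and untreated cells 3755 were called, 2399 (without untreated array 2) to 4118. The causes were not tested. Same-numbered arrays did not deviate together (r from -0.06 to 0.16 over 9 pairs, 2 of 9 arrays nearest to their own number in both other groups). With the replicate number as a block 32, 3385 and 3774 were called in the same order and 7 GTPase probe sets rose after LPS, Ifi47 being the addition (limma adjusted p = 0.0255). With dim probe sets left out, Mx1 and the dim Iigp1 probe set were not fitted. Calls with every value under the background limit of 31.2 (Mx1 without LPS array 1, the dim Iigp1 probe set, Gbp8) have no fold.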
